A study of Saccharomyces cerevisiae with 31 samples.

Results

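The genes described here encode the proteins of the small (40S) subunit of the cytosolic ribosome of budding yeast, *Saccharomyces cerevisiae*. They were taken from the annotation by name, as every RPS gene with a number and an optional A or B, plus ASC1. This gave 57 genes for 33 proteins, of which 24 proteins are encoded by an A and a B paralog and 9 by a single gene. The annotation holds 6021 protein-coding genes, and 5668 genes entered the authors' comparison of spt6-1004 with wild type (WT).

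The small subunit binds messenger RNA, scans it for a start codon and reads its codons. Its proteins fold the ribosomal RNA, line the channels through which the message enters and leaves, and hold initiation factors. Yeast makes them in equal amounts from some of its most strongly transcribed genes, under the regulators Rap1, Fhl1, Ifh1 and Sfp1, and the genes are known to be switched down together in starvation and stress. Spt6 is a histone chaperone that travels with RNA polymerase II and restores nucleosomes behind it.

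RNA was compared between 4 genotypes with 3 libraries each: WT, spt6-1004, spt6-S8A and spt6-S8E. All cultures grew in rich glucose medium (YPD) at 30 °C and were harvested at an optical density of 1. The spt6-1004 allele is a temperature-sensitive allele that lacks a helix-hairpin-helix region of Spt6, spt6-S8A replaces serines that casein kinase 2 phosphorylates with alanine, and spt6-S8E replaces them with glutamate. Nothing in the labels says whether the libraries came from separate cultures or clones, so p-values cover the spread between these libraries, which may be technical. Of the deposited tables, each compares a mutant with WT and lists only genes with an adjusted p under 0.05, without values per library. Depth per library is therefore unknown, SPT6 itself is in none of the 3 tables, and no level in a single library can be shown. A gene is called when it is listed, and the value of an unlisted gene is not known. Bulk RNA values are relative, so less of these transcripts per cell and a larger share of other RNA cannot be told apart, and the sources used here do not say how spike-in RNA was used in the scaling.

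In spt6-1004, 47 of the 57 small-subunit genes were called lower and 0 were called higher (DESeq2 Wald test, two-sided, Benjamini-Hochberg adjusted, in the authors' deposited table). By the same test 6.62% of all adjusted genes were called lower and 5.63% higher. Beside this background of 6.62%, 82.5% of the small-subunit genes were called lower. The background was not matched for level, since the base means of unlisted genes are not known. Among called members a higher base mean went with a smaller error, so level affects what can be called. How far level adds to the gap was not tested. At least 1 gene fell for 31 of the 33 proteins. The values of the called members in the authors' deposited table ran from -2.07 to -1.04 with a median of -1.50 on the log2 fold change scale, beside a median of -1.29 over all 375 genes called lower. The median corresponds to 35.2% of the WT level, and every called member lay between 23.7% and 48.5% of it. All 47 decreases were larger than 2-fold, a log2 value of -1, and 25 lay below -1.50.

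**Figure D1:**
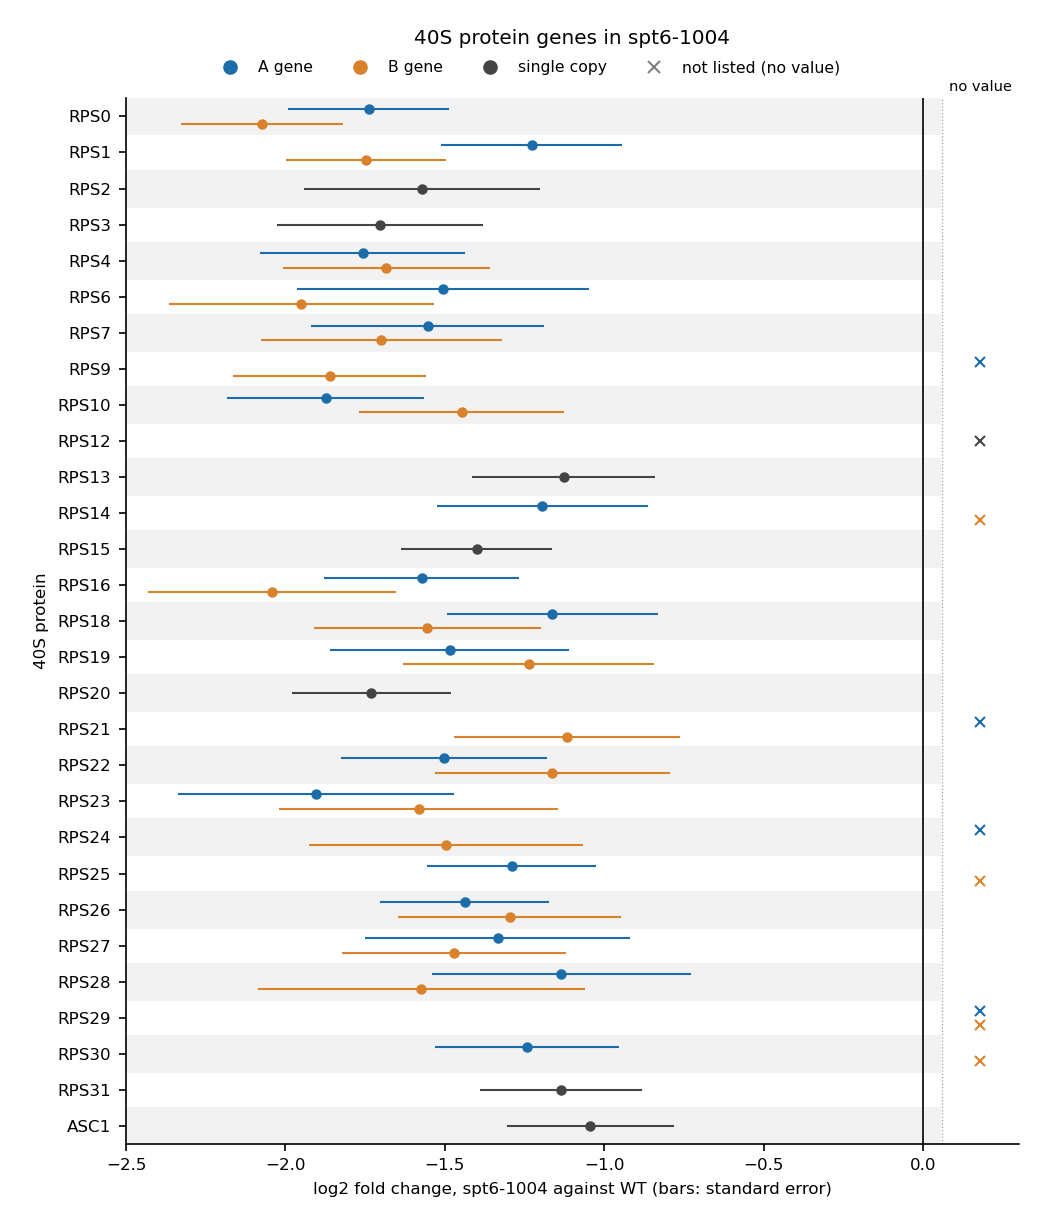
Log2 fold change of 40S protein genes in spt6-1004 against WT (x axis), by protein (y axis). Points are the authors' values, bars are standard errors, blue marks A genes, orange B genes and grey single-copy genes, and crosses in the strip at the right mark genes that were not listed and have no value. The 50 genes drawn include 41 called ones, all between -2.07 and -1.04.

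The proteins along the path of the messenger RNA include Rps2, Rps3 and Rps30 at the entry channel, and Rps14, Rps26 and Rps28 on the exit side. RPS3 (YNL178W, chromosome XIV, 302680 to 303402 in assembly R64) was at -1.70 (SE 0.32, DESeq2 adjusted p = 4.24e-06) in the authors' deposited table. RPS2 was at -1.57 (SE 0.37) in the authors' deposited table. These single-copy genes fell by amounts within 1 standard error of each other. RPS30A was at -1.24 and RPS14A at -1.19 in the authors' deposited table, while RPS30B and RPS14B were not listed. RPS14B is known in yeast to be held down by the Rps14 protein itself, which binds its transcript. RPS26A was at -1.44 and RPS26B at -1.30 in the authors' deposited table. RPS28A at -1.13 (SE 0.41, DESeq2 adjusted p = 0.0448) was the member nearest to the threshold in the authors' deposited table, and RPS28B at -1.57 (SE 0.51) had the largest error.

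Rps9 and Rps23 are known for mutations that alter the accuracy of translation. RPS9B (YBR189W, chromosome II, 604508 to 605508) was at -1.86 (SE 0.30, DESeq2 adjusted p = 3.98e-08) in the authors' deposited table, and its paralog RPS9A was not listed. RPS23A was at -1.90 (SE 0.43) and RPS23B at -1.58 (SE 0.44) in the authors' deposited table. Rps15 and Rps18 reach from the head of the subunit towards the transfer RNA and the large subunit. RPS15 had the highest base mean of the called members, 102.1, and was at -1.40 (SE 0.24, DESeq2 adjusted p = 1.41e-07) in the authors' deposited table. RPS18A was at -1.16 and RPS18B at -1.55 in the authors' deposited table.

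The member with the lowest value was RPS0B (YLR048W, chromosome XII, 242232 to 243349). The authors' deposited table gave it -2.07 (SE 0.25, DESeq2 adjusted p = 3.86e-14), or 23.7% of WT with a 95% interval of 16.8% to 33.5%. RPS0A was at -1.74 (SE 0.25, DESeq2 adjusted p = 3.76e-10) in the authors' deposited table. Rps0 sits beside Rps2 and Rps21 and is among the proteins that join the subunit late. RPS21B was at -1.12 (SE 0.35) in the authors' deposited table, and RPS21A was not listed.

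Rps1, Rps4, Rps6, Rps7, Rps13, Rps22, Rps24 and Rps27 belong to the body and platform, parts that begin to assemble in the nucleolus. RPS6B was at -1.95 (SE 0.42), the lowest value among these genes, in the authors' deposited table. Rps6 is the protein that TOR signalling marks by phosphorylation. RPS1B at -1.75, RPS4A at -1.76, RPS4B at -1.68 and RPS7B at -1.70 formed a narrow band in the authors' deposited table. The smaller decreases of the group in the authors' deposited table were those of RPS1A at -1.23, RPS13 at -1.13 and RPS22B at -1.16. RPS6A, RPS7A, RPS22A, RPS24B, RPS27A and RPS27B lay between -1.55 and -1.33 in the authors' deposited table, and RPS24A was not listed.

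The head holds Rps10, Rps12, Rps16, Rps19, Rps20, Rps25, Rps29 and Rps31 with the receptor protein Asc1. RPS16B at -2.04 (SE 0.39) and RPS10A at -1.87 (SE 0.31) had the lowest values here in the authors' deposited table. RPS20, whose protein is ubiquitinated when ribosomes collide, was at -1.73 (SE 0.25, DESeq2 adjusted p = 2.94e-10) in the authors' deposited table. RPS16A at -1.57, RPS19A at -1.48, RPS10B at -1.45, RPS25A at -1.29 and RPS19B at -1.24 followed in the authors' deposited table. RPS31, which encodes its protein as a fusion to ubiquitin, was at -1.14 (SE 0.25, DESeq2 adjusted p = 0.000175) in the authors' deposited table. ASC1, which encodes the yeast counterpart of RACK1, a propeller-shaped scaffold on the outside of the head, was at -1.04 (SE 0.26, DESeq2 adjusted p = 0.0011) in the authors' deposited table, or 48.5% of WT with a 95% interval of 34.0% to 69.2%. The 2 proteins with no called gene, Rps12 and Rps29, are also in the head.

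The spread among the called members was no wider than their errors, which does not show that they changed alike. Their log2 fold changes had a standard deviation of 0.27, smaller than the root mean square of their own standard errors, 0.35. Part of this narrow range was set by the calling. With 694 genes listed of 5668, a gene had to reach a Wald statistic of 2.74 in size, so the smallest decrease that could be listed ran from 0.65 for RPS15 to 1.41 for RPS28B. For 18 of the 47 it was at least 1, and 8 lay within 0.25 of it.

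The error followed the level closely. Base mean is the authors' mean over all 12 libraries, on a scale that the labels and headers do not name, and it ran from 5.0 for RPS28B to 102.1 for RPS15. Across the 47 called members the standard error fell with base mean (Spearman's rho -0.99, a description over genes of the same libraries). The log2 fold change did not follow base mean in the same way (Spearman's rho -0.05 over the same 47 genes). The 24 members with the higher base means had a median of -1.48 and the other 23 a median of -1.54. The median standard error was 0.29 in the first and 0.39 in the second. Small decreases could not be listed at low base means, so these values describe called members only.

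**Figure D2:**
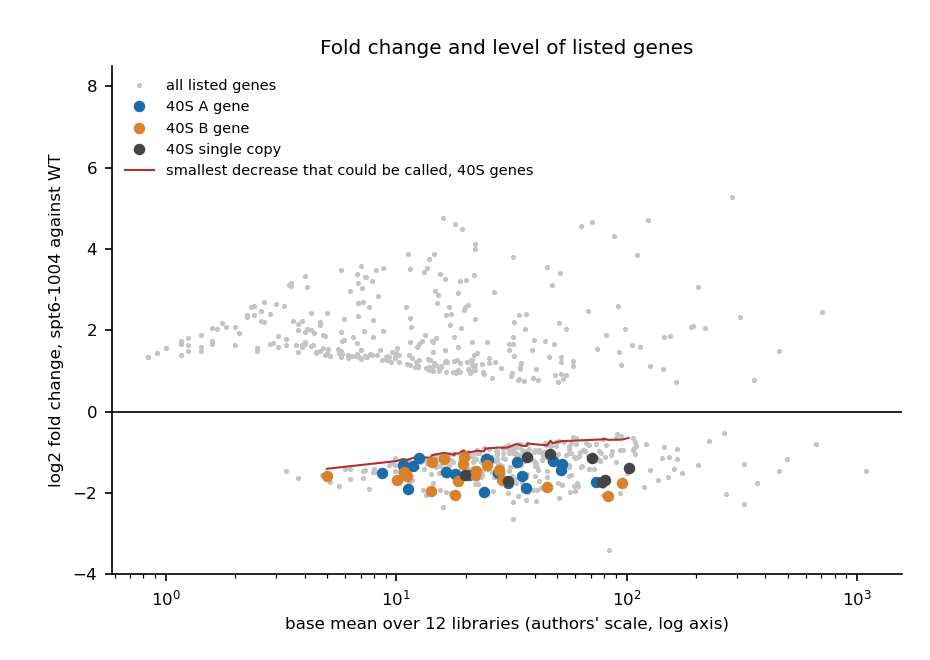
Log2 fold change in spt6-1004 (y axis) against base mean on a log axis (x axis) for all 694 listed genes in grey and the 47 listed 40S genes in colour. The red line joins the smallest decrease that could be listed at each 40S gene's standard error; the 40S genes lie in a band from -2.07 to -1.04 at all base means from 5.0 to 102.1.

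Most proteins of the small subunit have an A and a B gene left from a duplication of the yeast genome, and the paralogs often encode the same or nearly the same protein. Both genes were called lower in 16 of the 24 pairs, 1 gene in 7 pairs, and neither in 1 pair. Of the A genes 20 of 24 were called, with a median of -1.49, and of the B genes 19 of 24, with a median of -1.57. Of the 9 single-copy genes 8 were called, with a median of -1.49, and RPS12 was not.

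In none of the 16 pairs with both values did the 95% interval of the difference, A minus B, exclude 0. The intervals used the deposited standard errors, taken as independent. The differences ran from -0.67 to 0.52, with a median size of 0.36, and the A gene had the lower value in 7 pairs and the B gene in 9. For RPS1, with A at -1.23 and B at -1.75 in the authors' deposited table, the difference was 0.52 with an interval of -0.22 to 1.26. For RPS10, with A at -1.87 and B at -1.45 in the authors' deposited table, it was -0.43 with an interval of -1.30 to 0.45. The RPS0 pair had the narrowest interval, -0.37 to 1.04, and the RPS28 pair the widest, -0.84 to 1.72. With half-widths of 0.70 to 1.28, differences between paralogs of up to about this size were not detectable.

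**Figure D3:**
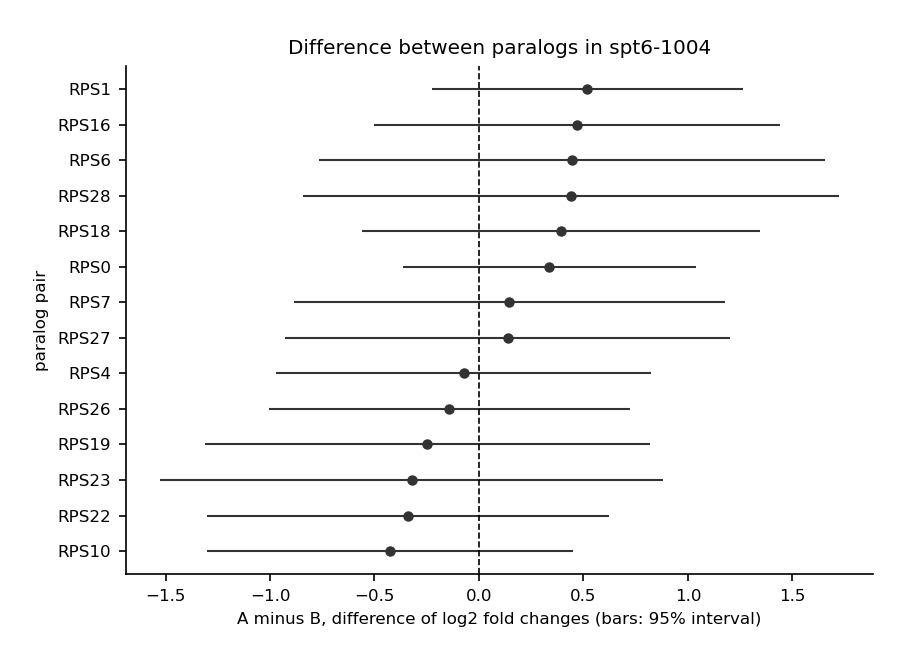
Difference between the log2 fold changes of the A and the B gene in spt6-1004 (x axis) for 14 of the 16 pairs with both genes listed (y axis). Points are A minus B and bars are 95% intervals from the deposited standard errors; all 14 intervals cross 0.

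Level differed between some of these paralogs although their fold changes were not told apart. Where the paralogs have the same annotated length, their base means can be set side by side. RPS1B had a base mean of 95.3 and RPS1A of 47.8 in the authors' deposited table, over 768 bp each. RPS26A stood at 51.8 and RPS26B at 19.5 in the authors' deposited table, over 360 bp each, and RPS28A at 12.6 and RPS28B at 5.0, over 204 bp each. No error of a base mean can be given, and reads from near-identical paralogs may have been split between them, so the values of single paralogs are uncertain.

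In 7 pairs a single gene was called, among them RPS9B, RPS14A, RPS21B, RPS24B, RPS25A and RPS30A. The values of the 7 in the authors' deposited table ran from -1.86 to -1.12 with a median of -1.29, beside a median of -1.55 for the 32 genes of pairs with both called. The 10 members without a value are the 7 unlisted partners, such as RPS9A, RPS14B, RPS21A, RPS24A, RPS25B and RPS30B, with RPS29A, RPS29B and RPS12. Whether an unlisted gene had a smaller change, a lower level or a larger error was not tested, since its base mean and standard error are not known. A partner that was not listed is therefore not shown to differ from the one that was.

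Ribosomal protein genes hold many of the introns of yeast. An annotated length that is not a multiple of 3 was taken as a sign of an intron, which was not checked gene by gene. Such a length was found for 26 of the 57 members, or 45.6%, beside 3.72% of all protein-coding genes. Of these 26, 23 were called lower, with a median of -1.55, and of the other 31, which hold intronless genes and introns whose length is a multiple of 3, 24 were called, with a median of -1.46. The annotated spans of RPS22B and ASC1 contain the small nucleolar RNA genes SNR44 and SNR24, which are known to lie in introns. Neither SNR44 nor SNR24 was listed in the authors' deposited table. The members lie on 14 of the 16 nuclear chromosomes, and 25 of the 30 on the plus strand and 22 of the 27 on the minus strand were called.

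The upstream neighbour of 34 members is a protein-coding gene on the other strand, so both start from the same intergenic region. For 4 of them this neighbour encodes a ribosomal protein, of the large subunit. Beside 69.1% of all 81 large-subunit genes, 3 of these 4 neighbours (75%) were called lower in the authors' deposited table. They are RPL13A at -1.62 beside RPS16B, RPL13B at -1.59 beside RPS16A, and RPP2A at -1.65 beside RPS15, while RPL39 beside RPS22A was not listed. Of the 30 other neighbours 1 was called lower and 0 higher, which is 3.33% called lower beside 4.13% called lower among 2952 divergent neighbours of other genes. The 1 gene was RRP5, an assembly factor of both subunits, at -0.80 (SE 0.24) beside RPS10B at -1.45 in the authors' deposited table. The distance between the 2 coding regions had a median of 845 bp for these 30 and 492 bp for the other genes. How many of the 30 were adjusted is not known, and the shares were not tested against each other.

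Genes that work with the small subunit were followed in lists written from textbook knowledge. Of 15 chaperones and import factors of new ribosomal proteins, some also serving other proteins, 8 were called lower and 0 higher. That is 53.3% called lower, beside 6.62% of all adjusted genes, a background not matched for level. The median of the 8 was -1.38. They were led by SSB2, a ribosome-bound Hsp70, at -1.97 (SE 0.26), and KAP123, an importin for ribosomal proteins, at -1.64 (SE 0.23) in the authors' deposited table. ZUO1 at -1.19, the nascent chain binders EGD2 at -1.49 and EGD1 at -1.43, SSB1 at -1.33, NAP1 at -0.84 and the importin PSE1 at -0.80 were the others in the authors' deposited table. SSB1 and SSB2 are near-identical paralogs, so their separate values are uncertain. TSR2, YAR1, TSR4 and FAP7, dedicated partners of Rps26, Rps3, Rps2 and Rps14, were not listed.

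Of 28 initiation and related factors that act on the small subunit, 10 (35.7%) were called lower and 0 higher, with a median of -1.03. Those with the smallest adjusted p were STM1, a protein that clamps idle ribosomes, at -1.14, NIP1, a subunit of eIF3, at -1.19, the helicase gene DED1 at -1.04 and the poly(A)-binding protein gene PAB1 at -0.82 in the authors' deposited table. Of 68 assembly factors of the small subunit, which build it and leave, 5 were called lower and 2 higher, or 7.35% and 2.94%, beside 6.62% and 5.63% of all adjusted genes, so the share called lower was near the background. UTP10 was at -1.75, UTP20 at -1.34 and RRP5 at -0.80, whereas the helicase gene ECM16 was at 0.94 in the authors' deposited table. Of the 34 genes for the small subunit of the mitochondrial ribosome 0 were called. Among 15 regulators of ribosomal protein genes, which include RAP1, FHL1, IFH1, SFP1 and HMO1, 0 were called. Both counts of 0 stand beside background shares of 6.62% lower and 5.63% higher. In lists this short they do not show that these genes were unchanged. Counts of 0 here come from the authors' adjusted test, and unadjusted values of unlisted genes were not analysed here.

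**Figure D4:**
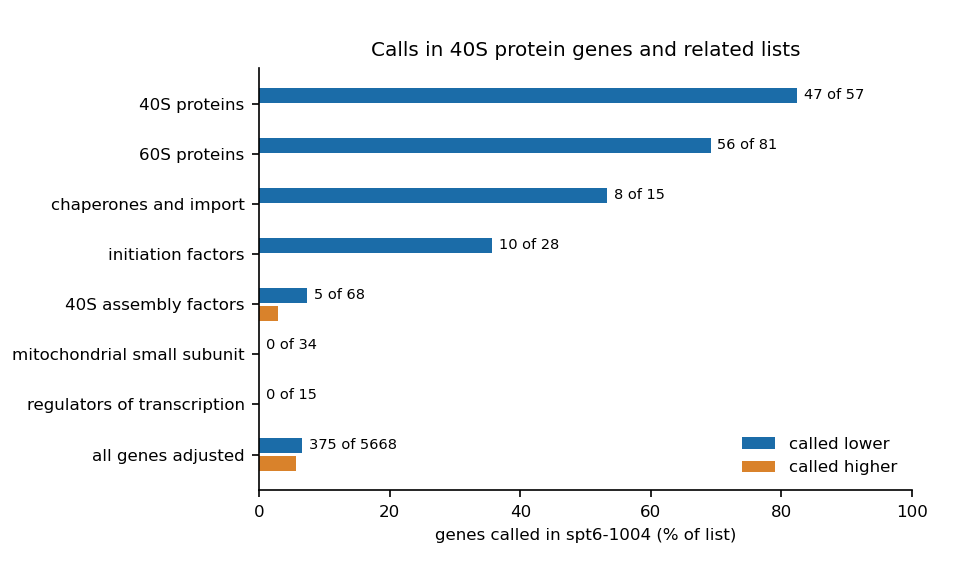
Share of genes called lower (blue) and higher (orange) in spt6-1004 (x axis, percent of each list) for the 40S protein genes, related lists and all genes adjusted (y axis). Labels give the genes called lower of the genes in the list, which are 47 of 57 for 40S proteins and 5 of 68 for 40S assembly factors.

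The large-subunit protein genes are the set most like these. Of the 81, 56 were called lower and 0 higher, a share of 69.1% beside 82.5% for the small subunit. The median of the called genes was -1.59 beside -1.50, their median base mean 23.5 beside 24.4, and their median standard error 0.35 beside 0.33. The difference between both sets was not tested.

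In spt6-S8A, 0 small-subunit genes were called, where 23 of 431 adjusted genes were listed and 2.09% were called lower in the authors' deposited table. The 431 genes were taken to be those with base means above a minimum, since the lowest listed base mean was 32.6. By this minimum 16 of the 47 members called in spt6-1004 were among them. No limit can be given for the 31 called members below it or for the 10 unlisted ones, whose base means are not known. An unlisted gene of the 431 had a Wald statistic no larger than 2.99 in size. The standard errors of the 23 genes listed for both mutants had a median ratio of 1.01 (spt6-S8A over spt6-1004, range 0.87 to 1.09), which allows a limit to be estimated for each member. At the median ratio the estimated limit on a change, up or down, ran from 0.71 for RPS15 to 0.93 for RPS10A. At the largest ratio it ran from 0.77 to 1.01 for the same genes. These limits are estimates and not strict bounds, since the members' own standard errors in spt6-S8A are not known.

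All 16 members had a larger decrease in spt6-1004 than their estimated limit, at either ratio. Each limit is a fixed multiple of the member's spt6-1004 standard error, so this compares only its spt6-1004 Wald statistic with that multiple. The 16 were already called in spt6-1004, at a Wald statistic of at least 2.74 in size. The only spt6-S8A information on them is that they were not listed. For RPS0B, at -2.07 in spt6-1004 in the authors' deposited table, the limit in spt6-S8A was 0.76 at the median ratio and 0.83 at the largest. For ASC1, at -1.04 in the authors' deposited table, it was 0.79 and 0.85. At the median ratio, the 95% interval of the gap between decrease and limit lay above 0 in 8 of the 16. Among them were RPS0A, RPS0B, RPS1B, RPS9B, RPS10A, RPS15 and RPS20. The interval took the errors as independent, although both comparisons share the WT libraries. At the largest ratio the number was 5, without RPS9B, RPS10A and RPS15. These counts too depend only on the spt6-1004 Wald statistic, so they are no measured difference between the mutants. The limits do not show that these genes were unchanged in spt6-S8A. Of the 28 initiation and related factors, 1 was called in spt6-S8A, DED1 at -0.76 (SE 0.25) in the authors' deposited table. Of the large subunit, RPL16B at -0.64 (SE 0.20) and RPL40A at -0.82 (SE 0.27) were called in spt6-S8A in the authors' deposited table. A change of RPL16B's size was below the estimated limit of every one of the 16.

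**Figure D5:**
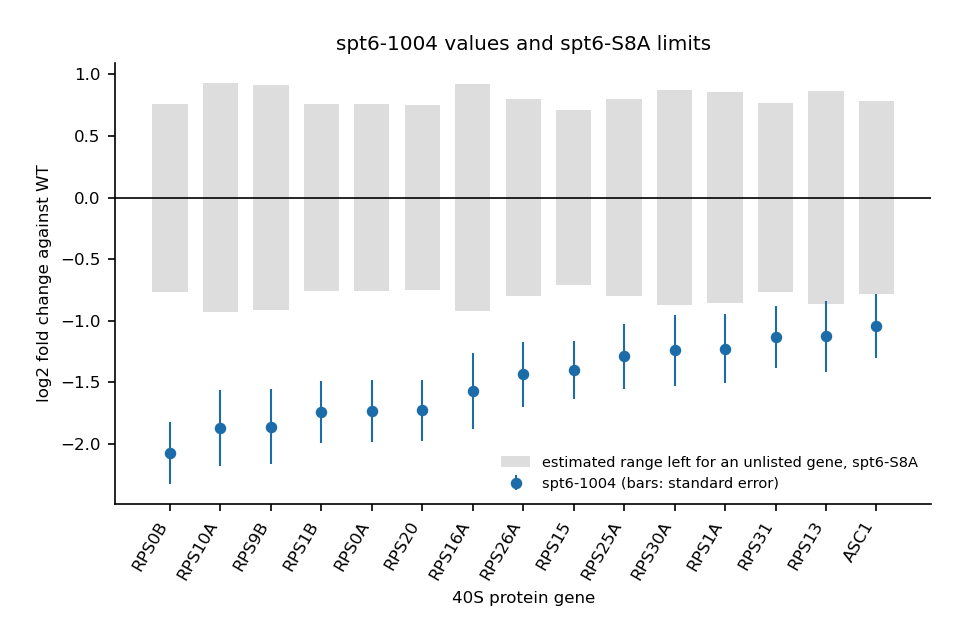
Log2 fold change against WT (y axis) of 15 of the 16 called 40S genes with base means of at least 32.6 (x axis). Points are spt6-1004 values with standard errors. Grey bars span the estimated range left for an unlisted gene in spt6-S8A, at the median ratio of standard errors. The bars are multiples of the same spt6-1004 standard errors and hold no measured spt6-S8A value. Every point lies below its bar, from -2.07 for RPS0B to -1.04 for ASC1.

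In spt6-S8E, 0 small-subunit genes were called, and 1 gene of 5668, or 0.0176%, was listed in the authors' deposited table. A single call leaves wide limits, as an unlisted gene could have a Wald statistic of up to 4.29 in size. For the 47 members with a standard error, limits were estimated with the median ratio of spt6-S8A, 1.01, since spt6-S8E gave a single ratio, 1.03 for SER3. They ran from 1.02 for RPS15 to 2.22 for RPS28B, with a median of 1.44. In 24 of the 47 the decrease in spt6-1004 was larger than this estimate, or 17 at the largest spt6-S8A ratio. At the median ratio the 95% interval of the gap lay above 0 for 1, RPS0B. As for spt6-S8A, these counts depend only on the spt6-1004 Wald statistics of members called there. They are no measured difference between spt6-1004 and spt6-S8E. The comparisons of the 3 mutants share the WT libraries.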

How the data were processed

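Per the labels' protocols, ribosomal RNA was depleted from total RNA, spike-in RNA was added afterwards, and stranded libraries were sequenced as paired ends. The submitters' processing notes name build sacCer3 and the tools DESeq2 1.14.1, STAR 2.5.2b, bedtools 2.26, Salmon 0.8.1, SAMtools 1.3.1 and cutadapt 1.10, without their roles. Per the file headers, the authors' deposited tables hold base means, log2 fold changes with standard errors, the Wald statistic (a score), p-values and adjusted p-values for genes with an adjusted p under 0.05. The 19 chromatin samples were not analysed here.

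The number of genes adjusted was worked back from the Benjamini-Hochberg formula and returned the deposited adjusted p in all 694, 23 and 1 rows; the recovery was checked on simulated data. Limits for unlisted genes are the largest unlisted Wald statistic times the member's spt6-1004 standard error and the median ratio of errors (that of spt6-S8A for both mutants), and so are estimates. Base mean times 12 was whole in every row (tolerance 1e-06). Counts that DESeq2 did not rescale for depth would give this, as would values scaled and rounded beforehand. Which of these holds is not known, and the effect of the scaling on the fold changes was not tested. The fold changes may be shrunken towards 0 by the authors' fit, which would understate them. Names and positions came from RefSeq (R64, another name for sacCer3). Python 3.11.15, pandas 2.3.3 and SciPy 1.17.1 were used. The other listed members are named, with up to 4 leading genes of the other lists (all called ones for chaperones). Members and lists were chosen with earlier results of these data known. Neighbouring genes, annotated lengths and the interval of the gap to the limit were examined after the values were seen. Values of 7 members are not reported singly here and are left out of the plots that name genes; all counts and medians include them.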

Additional observations from a re-analysis of the deposited data

How the results depend on the processing

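The members called lower in spt6-1004 numbered 47, and 39 at an adjusted p under 0.01, all 47 with a log2 change of 1 or more in size, and 1 at base means of at least 100, where RPS15 alone was left. Counted per protein, 31 had a called gene; merging paralogs with identical proteins was not run, and no pair had equal base means. The median of -1.50 became -1.55 at an adjusted p under 0.01, -1.40 at base means of at least 100 (RPS15) and -1.51 as a mean weighted by precision. No paralog interval excluded 0 with errors correlated by 0.5 or widened for 16 pairs. With the largest ratio of standard errors, the median limit moved from 0.79 to 0.86 in spt6-S8A and from 1.44 to 1.56 in spt6-S8E. With that ratio all 16 members stayed beyond the spt6-S8A limit, and 5 in place of 8 had an interval beyond it. For spt6-S8E, 17 in place of 24 were beyond the limit. These counts depend on the spt6-1004 Wald statistics of members already called there. The 9 lower genes among the 23 had ratios of 0.87 to 0.98. The search for Rap1 sites in promoters was not run, since no sequence was used here. Leaving out libraries was not possible, as the tables hold no value per library. No paired analysis was possible because the tables hold no value per library. Depth limits what could be called: members with low base means needed decreases above 1.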
